A study of Sus scrofa with 7 samples.

Results

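SOX proteins are transcription factors that bind DNA through an HMG box, and 10 members of the family with roles outside the endoderm are described here in porcine extra-embryonic endoderm (pXEN) cells and porcine embryonic stem cells (ESCs). They were SOX2, SOX3, SOX4, SOX5, SOX6, SOX8, SOX9, SOX11, SOX15 and SOX21, a set drawn up with earlier results of these data known, and their rows were found by gene symbol. Of these 10, 8 had a row under their symbol among the 29510 genes listed, and SOX6 and SOX8 had none. RNA was sequenced from 3 pXEN lines, 2 lines of naïve-like ESCs and 2 lines of primed ESCs, with 1 library per line. The pXEN lines came from inner cell masses of parthenogenetic blastocysts and were kept on mouse embryonic fibroblasts in LCDM medium with hLIF, CHIR99021, (S)-(+)-dimethindene maleate, minocycline hydrochloride and Y27632, at passages 26, 26 and 23. The naïve-like ESCs, at passages 21 and 22, grew on mouse embryonic fibroblasts in KOSR and N2B27 medium with FGF, hLIF, PD0325901, CHIR99021, SB431542 and doxycycline. The primed ESCs, both at passage 20, had been converted from naïve-like ESCs and grew on STO cells, a mouse fibroblast line, in α-MEM with KOSR, insulin-transferrin-selenium, activin A, bFGF, EGF and hLIF. The medium therefore changed with the cell type, and the feeder cells changed for the primed ESCs, so these cannot be told apart from the cell type in those comparisons, and every library came from cells grown on mouse feeders.

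The family is split into subgroups by the similarity of the HMG box. SOX2 and SOX3 (SOXB1) are activators of epiblast and neural progenitor genes, and SOX2 acts with OCT4, the product of POU5F1, in pluripotent cells. SOX21 and SOX14 (SOXB2) are mostly repressors on similar DNA sites. SOX4, SOX11 and SOX12 form SOXC and are widespread in progenitor cells, SOX5, SOX6 and SOX13 form SOXD and lack a known activation domain, SOX8, SOX9 and SOX10 form SOXE and act in cartilage, gonad and neural crest, and SOX15 is the only SOXG factor. SOX7, SOX17 and SOX18 form SOXF. In the mouse blastocyst, SOX17 marks the primitive endoderm, from which XEN cells are derived, and SOX2 becomes restricted to the epiblast.

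Between 10408164 and 12995720 reads were assigned to genes in each library, so that 3 counts, taken as the floor of detection, corresponded to 0.231 to 0.288 CPM (counts divided by the total of the library and rescaled), a limit from counting error alone. The labels were checked on marker lists. All 7 endoderm markers tested, SOX17 among them, were higher in pXEN cells than in either ESC type, beside 28.3% and 23.9% of all genes. Of the 7, 5 were also higher in primed than in naïve-like ESCs, beside 19.0% of all genes. SOX7, the eighth, had 0 to 3 counts in every library. Among ESC markers, POU5F1 had 0 to 5 counts in every library, and DPPA4 and ZFP42 had 0. NANOG, TDGF1 and UTF1 had 0 to 2 counts in naïve-like ESCs, in which GBX2 had 444 and 269. The library of pXEN line 2 stood apart from the other pXEN libraries. The 10 fibroblast genes with a row, of 11 listed, summed to 502 CPM in it, against 13.1 and 31.9 CPM in pXEN lines 1 and 3 and 87.0 to 261 CPM in the ESC lines, and it held 38 counts on chromosome Y, against 1 and 3 in lines 1 and 3 and 0 to 11 in the ESC lines. Calls and printed fold changes that moved by over 1.5 times without this library are given both ways.

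Levels are given as FPKM, fragments per kilobase of gene model, scaled by a total for each library, and differences as log2 fold changes of counts from the quasi-likelihood test of edgeR, adjusted by Benjamini-Hochberg over 17447 genes, with adjusted p below 0.05 as a call. All 8 genes passed the filter on low counts. The standard error (SE) beside an edgeR log2 fold change was its size divided by the square root of the F statistic. It was not estimated on its own, and for genes near 0 in a group it can differ from that of other methods. For SOX2 in pXEN cells, DESeq2 gave an SE of 2.28 relative to either ESC type. Replicates were lines, and the spread of each gene between lines was estimated once over all 3 groups, with information shared across genes. A p-value for 2 groups therefore also rests on the spread within the group not compared. Relative to naïve-like ESCs, 7 of the 8 genes were called in pXEN cells, beside 54.5% of all genes tested. SOX4 and SOX9 were higher (2 of 8, against 28.3% of all genes) and SOX2, SOX3, SOX5, SOX11 and SOX21 lower (5 of 8, against 26.2%). Relative to primed ESCs, 6 of 8 were called, beside 48.3% of all genes. SOX4 and SOX9 were again higher (2 of 8, against 23.9%), and SOX2, SOX3, SOX11 and SOX21 were lower (4 of 8, against 24.4%). Between the ESC types, 4 of 8 were called, beside 32.2% of all genes. SOX15 was higher in primed ESCs (1 of 8, against 19.0%) and SOX3, SOX5 and SOX21 were lower (3 of 8, against 13.3%). Without pXEN line 2, 6 of 8 were called between the ESC types, 2 higher and 4 lower, beside 43.8% of all genes. The median log2 fold change of the 8 genes was −1.02 in pXEN cells relative to naïve-like ESCs, −0.83 relative to primed ESCs and −0.32 between primed and naïve-like ESCs, where the medians of all genes were 0.00, −0.01 and 0.01. The comparisons share their libraries, so they are not independent of each other. In bulk RNA, fewer cells that express a gene and less RNA per cell cannot be told apart.

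**Figure D1:**
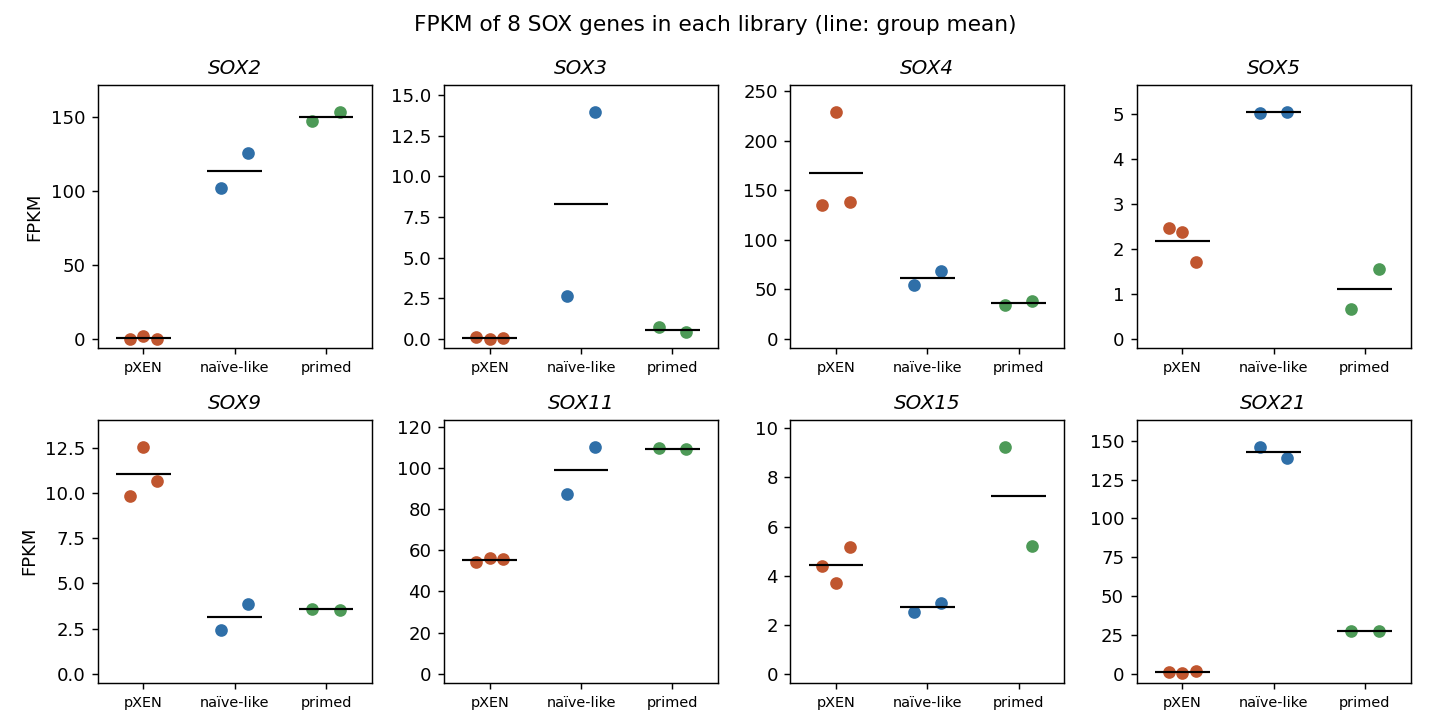
FPKM (vertical axis, a linear scale of its own for each gene) of the 8 SOX genes in the 3 pXEN, 2 naïve-like and 2 primed ESC libraries, with points for libraries and lines for group means. SOX2 and SOX21 lie near 0 in every pXEN line and above 27 FPKM in every ESC line, while SOX4 and SOX9 lie higher in every pXEN line than in any ESC line.

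SOX2, on chromosome 13 from 128979418 to 128980735 (+ strand, Sscrofa10.2), was close to absent from pXEN cells and high in both ESC types. Its level was 0, 1.98 and 0 FPKM in pXEN lines 1, 2 and 3, 102 and 126 FPKM in naïve-like ESCs, and 147 and 154 FPKM in primed ESCs. All pXEN counts, 30 in number, were therefore in line 2, and the pXEN and ESC libraries did not overlap. The log2 fold change in pXEN cells was −7.34 ± 0.72 (SE) relative to naïve-like ESCs (adjusted p = 8.69e-05) and −7.73 ± 0.72 relative to primed ESCs (adjusted p = 0.0001). Without pXEN line 2, SOX2 had no count in pXEN cells and lay at least 588-fold below naïve-like ESCs and at least 759-fold below primed ESCs, taking 3 counts in each library as the floor. Without pXEN line 3, the log2 fold changes were −6.75 and −7.14. The SOX2 level of line 2 was 1.28% of the ESC mean in CPM. In the same library TUBB3, a neuronal tubulin, had 28 counts against 3 and 6 in lines 1 and 3, and UTF1, an ESC chromatin factor, had 21 against 4 and 3. By contrast, ESRRB, GBX2 and TFAP2C had 0 counts in all 3 pXEN lines. The part of these reads and of the fibroblast and chromosome Y reads in the SOX2 value was not tested. Between primed and naïve-like ESCs, the log2 fold change of SOX2 was 0.39 ± 0.56 (adjusted p = 0.64), which was not called. Without pXEN line 2 the log2 fold change was 0.39 ± 0.12 with an adjusted p of 0.0313, and the difference was then called. With only the 2 ESC types fitted, it was 0.39 ± 0.12 (adjusted p = 0.0304) and was also called.

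SOX3, the X-linked paralogue of SOX2 (chromosome X, 131290256 to 131292430, − strand), was mainly a transcript of naïve-like ESCs, and at unequal levels in them. It had 0.140, 0 and 0.0418 FPKM in pXEN cells, 2.65 and 13.96 FPKM in naïve-like ESCs, and 0.728 and 0.409 FPKM in primed ESCs. These correspond to 3, 0 and 1 counts, 70 and 355 counts, and 20 and 12 counts. The groups did not overlap, but the naïve-like lines spanned a wide range and the pXEN lines were at or below the floor. From summed counts, SOX3 was 165-fold higher in naïve-like ESCs than in pXEN cells (95% counting interval 64.1 to 610) and 11.1-fold higher in primed ESCs than in pXEN cells (3.94 to 43.3), intervals that leave out the spread between lines. The edgeR log2 fold changes in pXEN cells were −7.07 ± 0.98 relative to naïve-like ESCs (adjusted p = 0.000544) and −3.19 ± 1.14 relative to primed ESCs (adjusted p = 0.0487). The first stayed called but moved to −5.41 without naïve-like line 2, −7.83 without naïve-like line 1, −8.37 without pXEN line 1 and −6.48 without pXEN line 2. The second moved to −4.49 without pXEN line 1 and −2.61 without pXEN line 2. That call was lost in 8 of 15 alternatives, including the fits without pXEN line 1 (adjusted p = 0.0548), 2 (0.11) or 3 (0.126) and without primed line 1 (0.191) or 2 (0.085). The log2 fold change of primed relative to naïve-like ESCs was −3.88 ± 0.87 (adjusted p = 0.0116), and −4.63 without naïve-like line 1. It was not called without naïve-like line 2 (−2.22, adjusted p = 0.12) or primed line 1 (0.0644) or 2 (0.0947). A row on the opposite strand that overlaps SOX3 by 1366 bases, and that is itself described as SOX-3, had 0, 0 and 1 counts in pXEN cells, 11 and 11 in naïve-like ESCs, and 3 and 9 in primed ESCs. The strand setting of the counting was not given in the sources used here, so reads of these rows cannot be told apart.

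SOX21, a SOXB2 repressor (chromosome 11, 69967126 to 69969064, − strand), differed between all 3 cell types. It had 1.14, 0.557 and 1.68 FPKM in pXEN cells, 146 and 139 FPKM in naïve-like ESCs, and 27.4 and 27.4 FPKM in primed ESCs. No groups overlapped, and pXEN line 2 was the lowest of the 7 libraries, unlike for SOX2. SOX21 was 127-fold lower in pXEN cells than in the naïve-like lines (log2 fold change −6.99 ± 0.27, adjusted p = 1.19e-06) and 24.2-fold lower than in the primed lines (−4.60 ± 0.27, adjusted p = 1.04e-05). Primed ESCs were 5.25-fold lower than naïve-like ESCs (−2.39 ± 0.23, adjusted p = 0.000267). SOX14, the other SOXB2 gene, had counts in primed ESCs alone, 18 and 7, which is at least 3.93-fold above pXEN cells and at least 3.81-fold above naïve-like ESCs. It was below the filter and was not tested.

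The RNA levels of SOX2 and SOX21 stood in a different ratio in the 2 ESC types, and protein was not measured in these data. The ratio of SOX2 to SOX21 FPKM was 0.699 and 0.905 in naïve-like ESCs and 5.37 and 5.61 in primed ESCs. This ratio, chosen after the values were seen and therefore not tested, lay below 1 in both naïve-like lines and above 5 in both primed lines. The SOX2 model, of 1318 bases, equals its genomic span, and that of SOX21, of 1248 bases, does not. Whether this moves the ratio relative to 1 was not tested. SOX2 averaged 114 ± 16.8 FPKM in naïve-like and 150.4 ± 4.38 FPKM in primed ESCs (SD, n = 2 each), and SOX21 averaged 142.5 ± 4.99 and 27.4 ± 0.0163 FPKM.

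SOX4, a SOXC factor of progenitor cells (chromosome 7, 17852990 to 17854423, + strand), was the highest of the 8 genes in pXEN cells. Its levels were 135, 229 and 139 FPKM in pXEN cells, 54.5 and 68.6 FPKM in naïve-like ESCs, and 34.3 and 37.9 FPKM in primed ESCs. Every pXEN line lay above every ESC line, with line 2 the highest. SOX4 was 2.72-fold higher in pXEN cells than in the naïve-like lines (log2 fold change 1.44 ± 0.25, adjusted p = 0.00181) and 4.67-fold higher than in the primed lines (2.22 ± 0.26, adjusted p = 0.00031). These calls held in all 16 alternatives. Primed ESCs lay below naïve-like ESCs without overlap, by −0.78 ± 0.27 on the log2 scale (adjusted p = 0.0577). This was not called here and was called in 6 of 16 alternatives, among them the fit without pXEN line 2 (adjusted p = 0.00122).

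SOX11, the close paralogue of SOX4 (chromosome 3, 138753103 to 138754446, − strand), ran the other way. It had 54.1, 56.3 and 55.9 FPKM in pXEN cells, 87.4 and 110.2 FPKM in naïve-like ESCs, and 109.8 and 108.9 FPKM in primed ESCs. The pXEN lines averaged 55.4 ± 1.16 FPKM (SD, n = 3) and were all below the ESC lines, whose types overlapped. SOX11 was 1.79-fold lower in pXEN cells than in the naïve-like lines (−0.84 ± 0.12, adjusted p = 0.000598) and 1.96-fold lower than in the primed lines (−0.97 ± 0.12, adjusted p = 0.000357), and between the ESC types the log2 fold change was 0.13 ± 0.13 (adjusted p = 0.478). SOX12, the third SOXC gene, had 0.516, 2.65 and 0.463 FPKM in pXEN cells, 98.6 and 93.4 FPKM in naïve-like ESCs, and 55.3 and 45.7 FPKM in primed ESCs. It was 76.4-fold and 39.8-fold lower in pXEN cells (adjusted p = 1.92e-05 and 6.83e-05). Line 2 was again the highest of the pXEN lines, and without it the folds were 192 and 100.3 (adjusted p = 5.75e-08 and 2.01e-07).

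Because SOX4 was higher and SOX11 and SOX12 were lower, pXEN cells differed from ESCs in which SOXC gene led. The ratio of SOX4 to SOX11 FPKM was 2.497, 4.07 and 2.48 in pXEN cells, 0.624 and 0.622 in naïve-like ESCs, and 0.313 and 0.348 in primed ESCs. It was thus above 1 in every pXEN line and below 1 in every ESC line. The ratio was also chosen after the values were seen and carries no test. The models of SOX3, SOX4 and SOX11 equal their genomic span and have lengths that are multiples of 3. Whether they include untranslated regions, which would change FPKM between genes, was not tested.

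**Figure D2:**
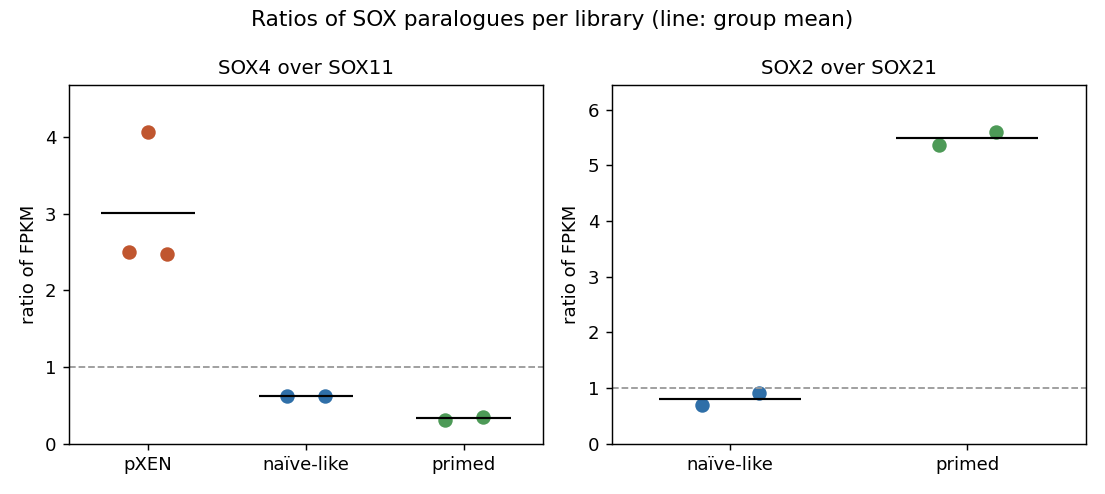
Ratio of FPKM (vertical axis, no unit) of SOX4 over SOX11 in the 7 libraries (left) and of SOX2 over SOX21 in the 4 ESC libraries (right), with points for libraries, lines for group means and a dashed line at 1. SOX4 over SOX11 is 2.48 to 4.07 in pXEN cells and 0.313 to 0.624 in ESCs, and SOX2 over SOX21 is 0.699 and 0.905 in naïve-like and 5.37 and 5.61 in primed ESCs.

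SOX5, a SOXD factor that works with SOX9 in cartilage (chromosome 5, 53723750 to 53752858, − strand), was low everywhere and highest in naïve-like ESCs. It had 2.45, 2.37 and 1.72 FPKM in pXEN cells, 5.02 and 5.04 FPKM in naïve-like ESCs, and 0.666 and 1.56 FPKM in primed ESCs. The naïve-like lines lay above all others, and the pXEN lines lay above the primed lines by a small margin. The log2 fold change in pXEN cells was −1.21 ± 0.42 relative to naïve-like ESCs (adjusted p = 0.0387) and 0.97 ± 0.46 relative to primed ESCs (adjusted p = 0.12), and that of primed relative to naïve-like ESCs was −2.17 ± 0.49 (adjusted p = 0.0118). These calls rested on 8 to 58 counts per library. The first was lost in 6 of 15 alternatives, including the fits without pXEN line 1 (adjusted p = 0.0675) or 3 (0.102) and without naïve-like line 1 (0.127) or 2 (0.128). The last was lost without naïve-like line 1 (adjusted p = 0.0544) or primed line 1 (0.0763), and was −2.90 without primed line 2.

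A second row described as SOX-5, without a symbol and on the opposite strand (chromosome 5, 53477788 to 53630683), had 10, 16 and 14 counts in pXEN cells, 49 and 54 in naïve-like ESCs, and 11 and 7 in primed ESCs. It was highest in naïve-like ESCs, as was SOX5 itself, and the naïve-like lines did not overlap with the others. SOX6, whose protein pairs with SOX5, had no row of its own, but 3 rows on chromosome 2 were described as SOX-6. Together they had 3, 9 and 4 counts in pXEN cells, 61 and 67 in naïve-like ESCs, and 35 and 37 in primed ESCs. Every pXEN line lay below every ESC line. The row with the most counts (46168198 to 46206850) had 3, 6 and 4 counts in pXEN cells, 38 and 34 in naïve-like ESCs, and 17 and 17 in primed ESCs. These rows were chosen by description and are not counted among the 8 genes. SOX13, the remaining SOXD gene, had the opposite order to SOX5 in ESCs, with 25.6, 19.0 and 25.1 FPKM in pXEN cells, 8.51 and 11.9 FPKM in naïve-like ESCs, and 42.9 and 46.7 FPKM in primed ESCs. It was 4.34-fold higher in primed than in naïve-like ESCs (adjusted p = 0.000312).

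SOX9, the SOXE regulator of cartilage and testis development (chromosome 12, 9027639 to 9033210, − strand), was higher in pXEN cells than in either ESC type. It had 9.85, 12.6 and 10.7 FPKM in pXEN cells, 2.42 and 3.87 FPKM in naïve-like ESCs, and 3.60 and 3.54 FPKM in primed ESCs. Every pXEN line was above every ESC line, and the ESC types overlapped. The pXEN cells exceeded naïve-like ESCs 3.50-fold (log2 fold change 1.81 ± 0.22, adjusted p = 0.000307) and primed ESCs 3.11-fold (1.64 ± 0.22, adjusted p = 0.000607), and both calls held in all 16 alternatives. Between primed and naïve-like ESCs the log2 fold change was 0.17 ± 0.24 (adjusted p = 0.632). SOX10, the neural crest SOXE factor, had 0 to 3 counts in every library, and SOX8 had no row.

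Cartilage genes, many of them SOX9 targets in chondrocytes, were for the most part higher in primed ESCs than in the other cell types. Of 12 listed genes, 8 were tested. In pXEN cells, 4 were higher and 0 lower than in naïve-like ESCs (median log2 fold change 1.14), beside 28.3% and 26.2% of all genes. One of the 4, MATN3, lost its call (adjusted p = 0.0364) in 11 of 16 alternatives, up to an adjusted p of 0.188, and COL11A1 lost its call without naïve-like line 1 (0.0523). Compared with primed ESCs, 1 was higher and 5 lower (median −3.09), beside 23.9% and 24.4% of all genes. In primed relative to naïve-like ESCs, between which SOX9 was not called, 6 were higher and 0 lower (median 3.84), beside 19.0% and 13.3% of all genes. COL2A1, the main collagen of cartilage, had 15, 53 and 14 counts in pXEN cells, 14 and 41 in naïve-like ESCs, and 1453 and 2262 in primed ESCs. Relative to primed ESCs, the log2 fold change in pXEN cells was −5.80 ± 0.52 (adjusted p = 7.90e-05), and −6.65 without pXEN line 2 (2.59e-06). COL11A2, another fibrillar collagen of cartilage, had 1, 21 and 2 counts in pXEN cells, 4 and 5 in naïve-like ESCs, and 823 and 924 in primed ESCs. ACAN, which encodes aggrecan, had 3, 2 and 1 counts in pXEN cells, 1 and 0 in naïve-like ESCs, and 90 and 103 in primed ESCs. All 3 genes were thus near the floor or low outside primed ESCs. HAPLN1, the link protein of aggrecan, was the exception in pXEN cells, with 162, 798 and 114 counts against 3 and 1 in naïve-like and 13 and 33 in primed ESCs (adjusted p = 0.00171 and 0.0071), and the second call was lost without primed line 1 (0.0657). COL9A2 was 1.66 ± 0.26 higher on the log2 scale in pXEN cells than in the naïve-like lines (adjusted p = 0.00109). Without pXEN line 2, in which HAPLN1 was highest, the counts of the list were 4 higher and 1 lower, 2 higher and 5 lower, and 7 higher and 0 lower in these 3 comparisons. Of all genes, 60%, 55.4% and 43.8% were then called in either direction, more than with all libraries.

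SOX15, which can bind the same sites as SOX2 in mouse ESCs (chromosome 12, 55289410 to 55291383, + strand), was low in all cell types. It had 4.40, 3.71 and 5.17 FPKM in pXEN cells, 2.53 and 2.88 FPKM in naïve-like ESCs, and 9.25 and 5.22 FPKM in primed ESCs. The groups did not overlap, but the primed lines differed widely and the lower of them was next to the highest pXEN line. In pXEN cells the log2 fold change was 0.70 ± 0.33 relative to naïve-like ESCs (adjusted p = 0.109) and −0.70 ± 0.31 relative to primed ESCs (adjusted p = 0.102), both short of a call. Primed ESCs were 2.64-fold higher than naïve-like ESCs (1.40 ± 0.36, adjusted p = 0.0197). This call was lost without naïve-like line 1 (adjusted p = 0.11) or 2 (0.071) and without primed line 1 (0.152).

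**Figure D3:**
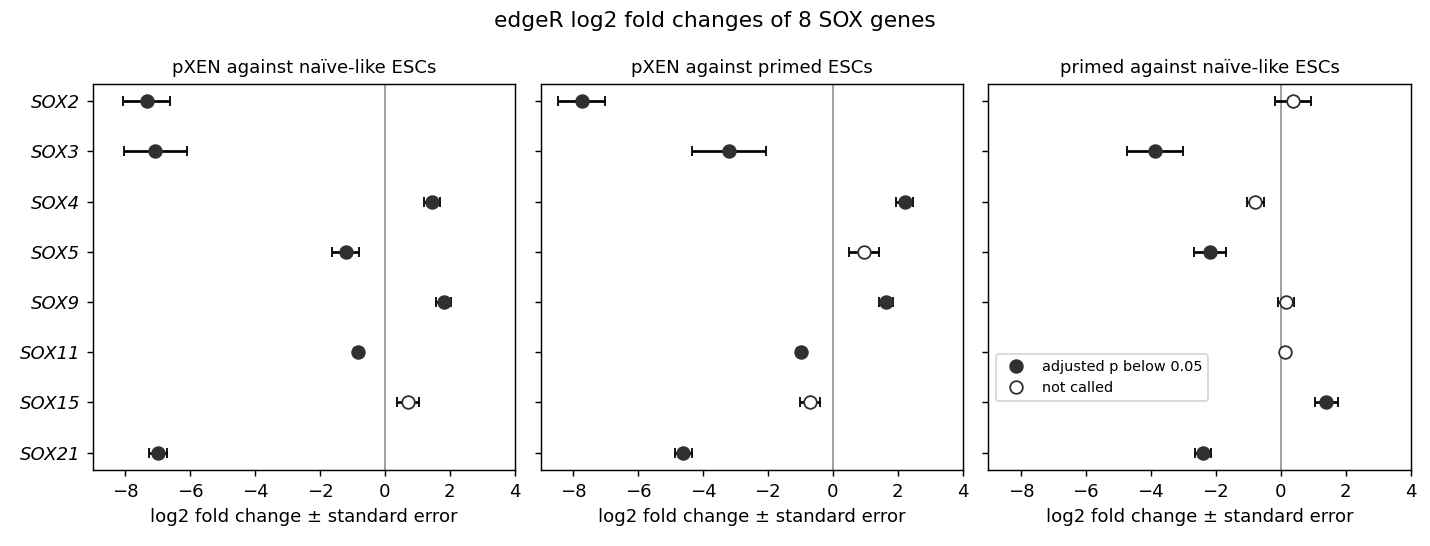
Log2 fold change with its standard error (horizontal axis) of the 8 SOX genes in the 3 comparisons, from edgeR's quasi-likelihood test on counts, with filled points for adjusted p below 0.05. SOX4 and SOX9 lie right of 0 and SOX2, SOX3, SOX11 and SOX21 left of 0 in both comparisons of pXEN cells, and SOX21 is at −6.99, −4.60 and −2.39.

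Set against all SOX rows with a symbol, the 8 genes took a smaller share in pXEN cells than in ESCs, since SOX17, the endoderm SOXF factor, took most of the rest. The FPKM of all SOX rows with a symbol summed to 567, 591 and 554 in pXEN cells, 510 and 575 in naïve-like ESCs, and 433 and 432 in primed ESCs. Of this sum, SOX17 held 53.4% ± 7.77 (SD, n = 3), SOX4 29.2% ± 8.30 and SOX11 9.72% ± 0.324 in pXEN cells. In naïve-like ESCs the leading genes were SOX21 with 26.4% ± 3.16 (SD, n = 2), SOX2 with 20.95% ± 1.32, SOX11 with 18.2% ± 1.43 and SOX12 with 17.8% ± 2.19. In primed ESCs they were SOX2 with 34.8% ± 1.10 (SD, n = 2), SOX11 with 25.3% ± 0.0776, SOX12 with 11.7% ± 1.53 and SOX13 with 10.4% ± 0.655. Among the SOX rows with a symbol, the leading gene thus differed between the 3 cell types. SOX1, SOX6, SOX8 and SOX18 had no such row and are not part of these shares. SOXB genes held 0.321% ± 0.102 of the sum in pXEN cells, 48.8% ± 0.491 in naïve-like and 41.4% ± 0.939 in primed ESCs, and SOXC genes held 39.1% ± 8.37, 47.3% ± 0.116 and 45.3% ± 1.01. The SOXC share of pXEN line 2, 48.7%, was above those of the ESC lines, and those of lines 1 and 3, 33.4% and 35.2%, were below them. Without line 2 the SOXC share averaged 34.3% in pXEN cells. In CPM, every pXEN line, line 2 included at 38.6%, was below every ESC line. These shares are descriptions and were not tested.

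**Figure D4:**
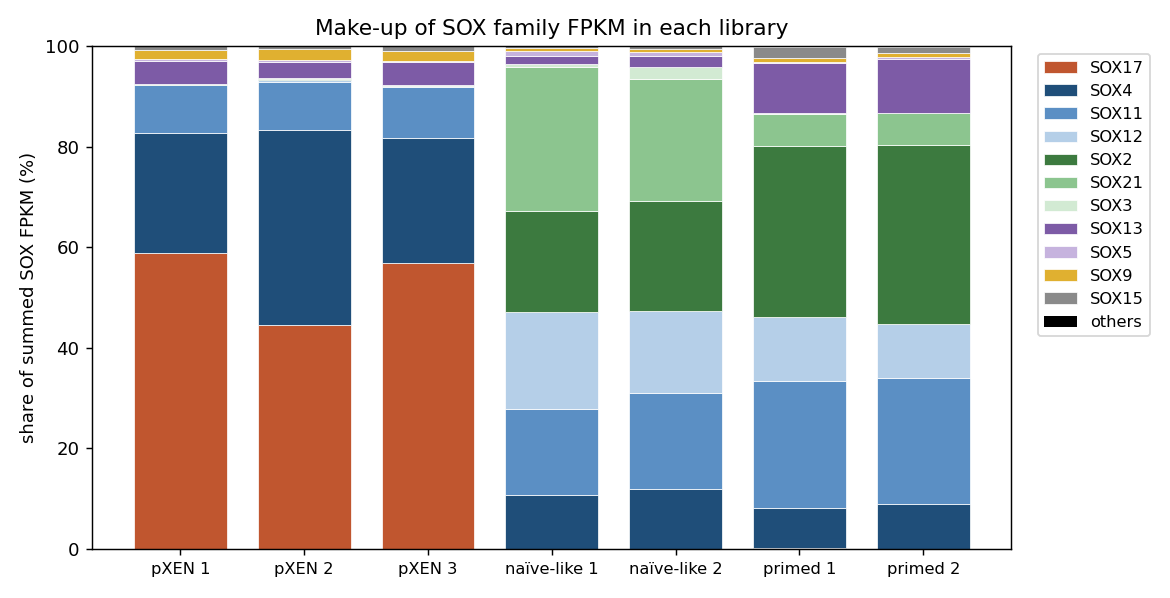
Share of the summed FPKM of all SOX genes with a symbol (vertical axis, percent) in each of the 7 libraries, with 1 bar per library and colours by gene (blue SOXC, green SOXB, orange SOX17). SOX17 and SOX4 fill most of each pXEN bar, and SOX2 and SOX21, which average 20.95% and 26.4% in naïve-like ESCs and 34.8% and 6.33% in primed ESCs, are absent or nearly so from pXEN bars.

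In the order of FPKM in pXEN cells, SOX17, SOX4, SOX11, SOX13, SOX9 and SOX15 followed each other with ranges that did not overlap, and SOX5, SOX12, SOX21 and SOX2 below them overlapped with their neighbours. In naïve-like ESCs, SOX21 stood above SOX2, the range of SOX11 overlapped with those of SOX2 and SOX12, and SOX4 came next. SOX13, SOX3 and SOX5 overlapped with their neighbours at the lower end, as did SOX9 and SOX15. In primed ESCs, SOX2 and SOX11 stood apart at the top, SOX12 and SOX13 overlapped, and SOX4, SOX21, SOX15 and SOX9 followed without overlap. SOX7, SOX30 and SRY had at most 3 counts in any library.

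Genes that SOX2 acts with or on in pluripotent and neural cells differed in part with SOX2. Of 14 listed genes, 13 had a row and 9 were tested. In pXEN cells, 2 were higher and 4 lower than in naïve-like ESCs (median log2 fold change −0.27), beside 28.3% and 26.2% of all genes, and 1 was higher and 5 lower than in primed ESCs (median −4.41), beside 23.9% and 24.4%. In primed relative to naïve-like ESCs, 3 were higher and 0 lower, although the median was of the opposite sign (−0.11), beside 19.0% and 13.3% of all genes. The neural POU factor POU3F2 had 1, 25 and 1 counts in pXEN cells and 401 and 523 in naïve-like ESCs, a difference of −5.55 ± 0.73 on the log2 scale (adjusted p = 0.000405), and of −8.52 without pXEN line 2. Its relative POU3F1 had 0, 0 and 4 counts in pXEN cells and 66 and 28 in naïve-like ESCs (adjusted p = 0.00344). Its log2 fold change is not given, since all its pXEN counts were in line 3. UTF1 was highest in primed ESCs, with 1828 and 2043 counts against 0 and 1 in naïve-like ESCs (adjusted p = 4.59e-05) and 4, 21 and 3 in pXEN cells (adjusted p = 1.36e-05). NANOG was instead highest in pXEN cells, with 177, 60 and 166 counts against 0 and 2 in naïve-like and 21 and 22 in primed ESCs, and was called higher than in both (adjusted p = 0.000405 and 0.00556). Without pXEN line 2 the counts of this list in the pXEN comparisons were the same, and that between the ESC types was 3 higher and 1 lower. Between the ESC types, 4213 genes were then higher and 3353 lower of all 17264 tested.

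Neural genes, among which SOXB1 factors are active in progenitors, were higher in ESCs for 6 of the 11 tested in each comparison with pXEN cells. In pXEN cells, 3 were higher and 6 lower relative to naïve-like ESCs (median −2.24, beside 28.3% and 26.2% of all genes), and relative to primed ESCs, 2 were higher and 6 lower (median −1.70, and −2.51 without pXEN line 2, beside 23.9% and 24.4% of all genes). TUBB3 had 3, 28 and 6 counts in pXEN cells, 4134 and 5181 in naïve-like ESCs, and 1985 and 1567 in primed ESCs. STMN2, a neuronal microtubule regulator, had 0, 4 and 0 counts in pXEN cells, 1854 and 3227 in naïve-like ESCs, and 12883 and 14045 in primed ESCs. Both were at or near the floor in pXEN lines 1 and 3 and called lower in pXEN cells in both comparisons (adjusted p between 2.40e-06 and 2.29e-05). FABP7, a fatty acid binding protein of radial glia, differed by −6.95 ± 0.48 on the log2 scale in pXEN cells relative to naïve-like ESCs (adjusted p = 1.46e-05), and by −6.29 without naïve-like line 2. PAX6, the eye and forebrain factor that pairs with SOX2, had 0, 1 and 5 counts in pXEN cells, 17 and 20 in naïve-like ESCs, and 245 and 172 in primed ESCs, and was called lower in pXEN cells than in both (adjusted p = 0.00961 and 0.000171). OTX2, a forebrain factor that is also made in visceral endoderm, was 4.22 ± 0.41 higher on the log2 scale in pXEN cells than in the naïve-like lines (adjusted p = 7.77e-05), and 4.83 without naïve-like line 1. In primed relative to naïve-like ESCs, 4 of the 11 were higher and 2 lower (median 1.27, beside 19.0% and 13.3% of all genes). Without pXEN line 2 they were 6 and 2, beside 4213 higher and 3353 lower of all 17264 genes tested.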

How the data were processed

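RNA was taken from 7 lines in 3 groups, with 1 library each. Libraries were directional and rRNA-depleted. Per the submitters' processing notes, HISAT2 2.0.5, featureCounts 1.5.0-p3, edgeR 3.22.5 and Sscrofa10.2 were used. The authors deposited raw counts per gene and FPKM. For all genes with at least 100 counts, the deposited FPKM fitted 1 total per library within 0.1%, and this total was 0.913 to 1.08 times the counted reads. Handling of mouse feeder reads was not given in the sources used here.

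Here, counts were tested in R 4.3.3 with edgeR 4.0.16 (quasi-likelihood test, TMM, filterByExpr, all 7 libraries in 1 fit, Benjamini-Hochberg adjustment). DESeq2 1.42.0, limma 3.58.1 on log2(FPKM + 0.1) and log2(FPKM + 1), other scalings and filters, a replicate block and leaving out each line were alternatives. Scripts were tested on simulated data. Genes were named as follows: all 10 SOX genes, the rest of the family, up to 4 called genes per list with the largest fold change in a comparison, genes at 0, and the 2 nearest profiles per SOX gene. Some genes that this rule names are not reported here. Genes singled out beside the pXEN line 2 library, and the paralogue ratios, were chosen after their values were seen. The SOX genes and the lists (SOX2 partners and targets, cartilage, neural, endoderm, ESC, fibroblast, neural crest and glia) were chosen with earlier results of these data known, and the list counts without pXEN line 2 were added after seeing the data. Of 87 list genes, 76 had a row, 5 of them named through an identifier table.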

Additional observations from a re-analysis of the deposited data

How the results depend on the processing

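Of 372 fold changes of the 8 SOX genes recomputed under other settings, 340 kept their direction and their side of the threshold. The 2 that reversed were not called in any setting: without naïve-like line 1, SOX9 in primed relative to naïve-like ESCs moved from 0.17 to −0.13 on the log2 scale and SOX11 from 0.13 to −0.030 (ranges over lines left out −0.13 to 0.55 and −0.030 to 0.31). Requiring 10 counts in every library left only 4 of the 8 SOX genes, because genes low in 1 library or more were removed, and 3 of them were called in pXEN cells relative to naïve-like ESCs (1 lower), 3 relative to primed ESCs (1 lower) and 1 between the ESC types (0 lower), beside 54.6%, 46.1% and 31.6% of the 12261 genes tested. With only the 2 groups compared, 2 of the 8 SOX genes were higher and 4 lower in primed than in naïve-like ESCs. Of all 16219 genes tested in that fit, 3963 were higher and 3231 lower. With lines left out, 5553 to 9566 genes were called between pXEN cells and primed ESCs and 2965 to 7566 between the ESC types, where 1 to 6 SOX genes were called, 0 to 2 of them higher and 1 to 4 lower. A group left with 1 line was assumed to vary like the others. With CPM, which is not per length, in place of FPKM, SOX12 held 11.2% of the SOX sum in naïve-like ESCs, below SOX4 (12.9%), and 6.93% in primed ESCs, below SOX13 (12.8%) and SOX4 (9.04%), SOXB held 50.9% of the SOX sum in naïve-like ESCs, SOXC held 30.1% in pXEN cells, 43.5% in naïve-like and 41.6% in primed ESCs, and SOXF held 0.0248% in naïve-like and 0.23% in primed ESCs. Upper-quartile scaling shifted the median of all genes by −0.16 in pXEN cells relative to naïve-like ESCs, and gave 4348 higher and 5621 lower genes there against 4937 and 4577, but reversed none of the 66 SOX values tested under other scalings. Apart from the fits that left out lines, causes were not tested.

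Line numbers were shared between groups, but same-numbered lines did not deviate together (correlations −0.00892 to 0.0442), so the numbers were not taken as a pairing. With the replicate block, 6, 5 and 5 SOX genes were called in the 3 comparisons, and 8274, 6993 and 5041 genes in all. SOX3 relative to primed ESCs (adjusted p = 0.128) and SOX5 relative to naïve-like ESCs (0.133) were then not called, MATN3 relative to naïve-like ESCs was lost (0.0884), as in 10 other settings, and SOX4 was called between the ESC types (0.0206).

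SOX3, SOX5, SOX14 and SOX15 had under 60 counts in at least 4 of 7 libraries, so their counting error was the larger. DESeq2 called SOX4 between the ESC types (adjusted p = 0.0167) and lost SOX5 relative to naïve-like ESCs (0.0588).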

Other observations

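For each SOX gene, the genes with the most similar profile were sought among 9859 genes with a symbol and a mean of at least 1 FPKM, by the root mean square (RMS) difference of log2(FPKM + 1) values centred on their mean over the 7 libraries. The profile nearest to SOX2 was that of YBX3, with an RMS difference of 0.439 where SOX2 itself deviated from its mean by 3.27. YBX3 had 1.21, 1.504 and 0.862 FPKM in pXEN cells, 219 and 195 FPKM in naïve-like ESCs, and 212 and 220 FPKM in primed ESCs. The next was FZD10, a WNT receptor (0.536). SOX21 was nearest to NAT8L (0.297), which makes N-acetylaspartate in neurons, and to the neural POU factor POU3F3 (0.306), which had 0, 0.0726 and 0 FPKM in pXEN cells, 62.5 and 76.4 FPKM in naïve-like ESCs, and 16.6 and 17.5 FPKM in primed ESCs. SOX3 was nearest to BCAS1 (0.208) and NPS (0.271), which also differed between the naïve-like lines.

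SOX4 was nearest to MEF2C (0.136) and RIMKLA (0.143). MEF2C had 4.44, 9.998 and 4.98 FPKM in pXEN cells, so that line 2 was the highest as for SOX4. SOX9 was nearest to EBF4 (0.0961) and to FADS2 (0.122), a fatty acid desaturase, and SOX11 to WDR12 (0.0853) and BBS7 (0.0860). SOX5 was nearest to IMMP2L (0.149) and GSS (0.180), and SOX15 to NOTCH2 (0.138) and ZBTB43 (0.153). These are descriptions over 7 libraries in 3 groups, which the profiles share.

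Of 8 neural crest and glia markers, 5 were tested. In pXEN cells, 3 were higher and 1 lower than in naïve-like ESCs, beside 28.3% and 26.2% of all genes, and 2 were higher and 1 lower without pXEN line 2. Compared with primed ESCs, 0 were higher and 1 lower, beside 23.9% and 24.4% of all genes. ERBB3, a neuregulin receptor, had 587, 753 and 701 counts in pXEN cells, 2 and 0 in naïve-like ESCs, and 713 and 832 in primed ESCs. Of the 9 fibroblast markers tested, 3 were higher and 3 lower in pXEN cells than in the naïve-like lines, shares near those of all genes, and 3 higher and 4 lower without pXEN line 2. Compared with primed ESCs, 1 was higher and 4 lower, beside 23.9% and 24.4% of all genes, and 1 higher and 5 lower without pXEN line 2. Of all 17264 genes tested without pXEN line 2, 5212 were higher and 5147 lower in pXEN cells relative to naïve-like ESCs. Relative to primed ESCs, 4572 were higher and 4994 lower. COL3A1 had 20, 4251 and 203 counts in the pXEN lines. Of the 8 ESC markers tested, 3 were higher and 4 lower than in naïve-like ESCs (28.3% and 26.2% of all genes), and 1 higher and 7 lower than in primed ESCs (23.9% and 24.4% of all genes). SOX2 itself is on this list and is among the lower genes in both comparisons, so these counts partly repeat its result.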
